A study of Mus musculus with 3 samples.

Results

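The 10 circadian clock genes described here are Per1, Per2, Per3, Cry1, Cry2, Nr1d1, Nr1d2, Dbp, Tef and Arntl, members of the core loop and its first outputs, taken by their symbols from the gene list, and all 10 were found among the 18287 listed genes. RNA came from MAECs, a purchased culture of endothelial cells from mouse aorta, and was sequenced from polyadenylated transcripts with 1 library per condition. The control library came from cells labelled as control. The oxidase library came from cells labelled with 5 mU/mL glucose oxidase for 30 min, an enzyme that generates hydrogen peroxide as it oxidizes glucose. The label does not give the time from this exposure to harvest. The Et2HOBA library came from cells that had the oxidase exposure and, for 24 h, 0.2 mM Et2HOBA, a benzylamine known as a scavenger of reactive dicarbonyls. Cells and complete medium were bought in for every condition, nothing in the labels ties a library to more than 1 culture, and no library given Et2HOBA alone was analysed here. The labels give neither the order of the exposures nor the hour at which each culture was harvested, so a difference in circadian phase between the cultures and an effect of treatment cannot be told apart.

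The mammalian clock is a transcriptional loop found in nearly every cell, the cells of the vessel wall included. BMAL1 (the product of Arntl) pairs with CLOCK and activates genes that carry E-boxes, among them the Period and Cryptochrome genes, whose proteins return to the nucleus and repress BMAL1 and CLOCK. A second loop runs through the nuclear receptors REV-ERB alpha and beta (Nr1d1 and Nr1d2), which repress Arntl at ROR elements, while DBP and TEF carry the rhythm to output genes through D-boxes.

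The libraries held 35005089 to 40212212 reads over the listed genes. Endothelial markers were abundant, and all 7 were listed, with 291938 summed reads in control, 174141 in the oxidase library and 177046 in the Et2HOBA library. Their members differed. After glucose oxidase 3 of the 7 fell past a log2 ratio of 1 against control, where 8.60% of all listed genes did. With Et2HOBA 4 fell, where 8.04% of all listed genes did. No endothelial marker rose past it in either comparison, where 4.07% and 6.66% of all listed genes did. With Et2HOBA Tek was at 0.247, Vwf at 0.267, Kdr at 0.391 and Erg at 0.451 of control, while Cdh5 was at 1.14. Among markers of other cells, Acta2, Tagln and Myh11 (smooth muscle) had 4 to 73 reads, and Cnn1, the fibroblast genes Dcn and Lum and the leukocyte genes Ptprc, Adgre1 and Cd3e had no entry among the listed genes. The smooth muscle list as a whole, with 4 of 5 genes listed, summed to 5006, 3579 and 4086 reads in the same order, most of them from Smtn. The fibroblast list, with 3 of 5 listed, summed to 137, 1367 and 2844 reads, carried by Pdgfra, and the macrophage gene Cd68 was listed, at 8215, 17067 and 27799 reads. The part of these markers in the clock gene values was not tested, and in bulk RNA a change in the number of cells of a type and a change in RNA per cell cannot be told apart.

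With 1 library per condition there is no replicate check and no test between conditions. Read counts are given as deposited for control and Et2HOBA and as recovered for the oxidase library. Log2 ratios are of normalized counts plus 10, and fold differences are of normalized counts. The 95% intervals of the fold differences are exact Clopper-Pearson intervals that cover counting error only and leave out differences between cultures. They treat each read as independent, so they are too narrow where reads are PCR copies of the same molecule. A gene is said to have risen or fallen where its log2 ratio reached 1 in either direction, which was chosen with results of these data known.

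After glucose oxidase, none of the 10 clock genes reached the limit of 1, where 12.7% of all listed genes did (4.07% higher, 8.60% lower, and 9.30% of protein-coding genes in either direction). By smaller amounts, 9 of the clock genes were above control, where 8935 of the 18287 listed and 7171 of 13285 protein-coding genes were. The ratios of the 9 were 0.12 to 0.83, and the exception was Arntl at -0.13. The median ratio was 0.38, against -0.01 over all listed genes and 0.04 over protein-coding genes. With Et2HOBA as well, Nr1d1 rose past the limit relative to control and no member fell past it, so 1 of 10 passed where 14.7% of all listed genes did (6.66% higher, 8.04% lower, and 16.6% of protein-coding genes in either direction). Here the ratios ran from -0.52 for Per2 to 1.34 for Nr1d1, with a median of 0.42 against -0.0002 over all listed genes. Both comparisons use the same control library. Between the treated libraries no member passed, against 8.55% of all listed genes (6.39% higher, 2.15% lower, and 3.32% of protein-coding genes in either direction), and the ratios ran from -0.65 for Per2 to 0.75 for Nr1d1. At a lower limit of 0.5 in either direction, the members past it were 3, 5 and 2 in these comparisons. The shares of all listed genes were 33.8%, 40.1% and 25.5%, near those of the members. By direction, 3 members were higher and 0 lower after glucose oxidase, where 2470 and 3705 of the 18287 listed genes were. With Et2HOBA against control 4 were higher and 1 lower, where 3505 and 3827 listed genes were. Between the treated libraries 1 was higher and 1 lower, where 2483 and 2187 listed genes were. At these depths the counting interval excluded equal levels for 10 members after glucose oxidase, for 7 with Et2HOBA against control and for 9 between the treated libraries. The same held for 61.9%, 65.9% and 56.8% of all listed genes with over 3 reads in both libraries, so an interval that excludes equal levels was common.

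**Figure D1:**
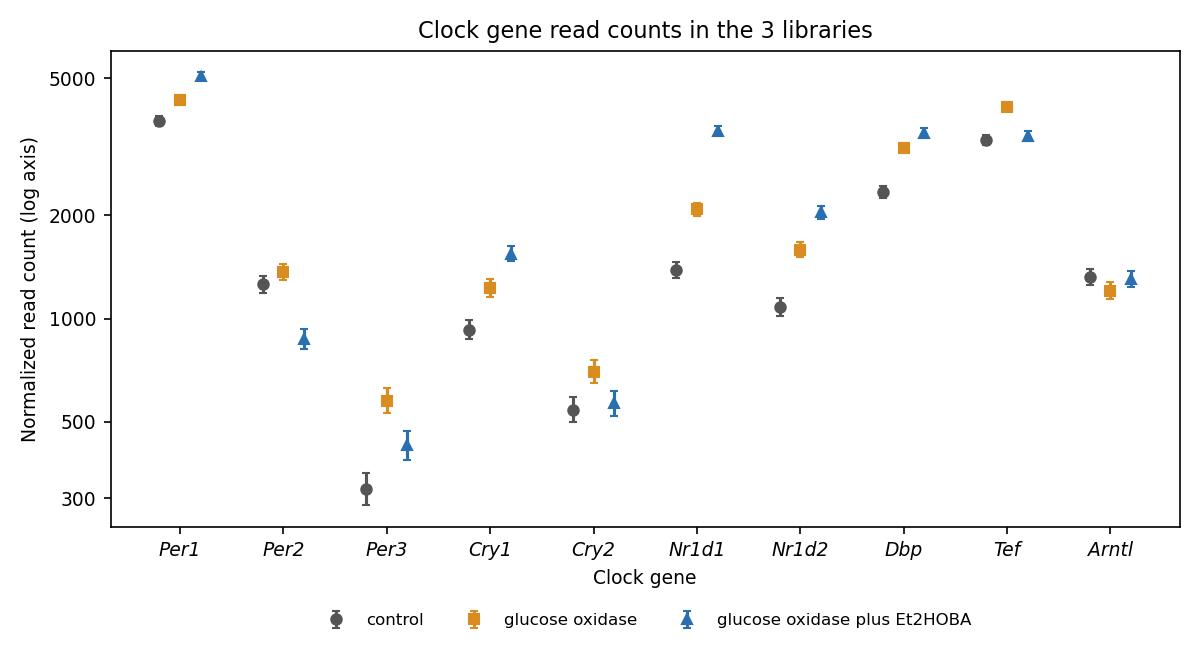
Normalized read count (log axis) of each clock gene in the control (circles), oxidase (squares) and Et2HOBA (triangles) libraries, 1 library each; bars are exact 95% Poisson intervals and cover counting error only. Per1, Cry1, Nr1d1, Nr1d2 and Dbp are highest with Et2HOBA, Per2, Per3, Cry2 and Tef are highest after glucose oxidase alone, and Arntl stays between 1205 and 1319.

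By the library in which they were highest, the members fell into 3 groups, as the plot of normalized counts shows. The first 5, Per1, Cry1, Nr1d1, Nr1d2 and Dbp, were highest with Et2HOBA, as were 38.0% of all listed genes. All 5 were also higher after glucose oxidase than in control, an order shown by 27.0% of all listed and 32.4% of protein-coding genes. Per2, Per3, Cry2 and Tef had their highest level after glucose oxidase alone, as did 21.9% of all listed genes. Of these, only Per2 was lower with Et2HOBA than in control. Arntl was highest in control, as were 40.2% of all listed genes. Some of these steps are within counting error, as given gene by gene below.

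Arntl encodes BMAL1, the obligate activator of the loop (ENSMUSG00000055116.8, GRCm38 chromosome 7, 113207465 to 113314126). It had 1361 reads in control, 1163 in the oxidase library and 1351 in the Et2HOBA library, the flattest profile of the 10. Its level after glucose oxidase was 0.913 of control (95% interval 0.844 to 0.989), and with Et2HOBA it was 0.986 of control (0.914 to 1.06), within counting error. Its partner Clock had 6889, 5644 and 6670 reads, a level of 0.876 and then 0.962 of control, and the reads of Clock per read of Arntl were 5.06, 4.85 and 4.94 with overlapping intervals. A ROR element, the sequence through which REV-ERB proteins act, begins 30 bases after the first base of the transcript at 1 annotated start of Arntl. The other annotated start lies before that one, and the stretch searched there ended short of the same element. The site is shown because Arntl is the known target of the receptor gene that rose most. The element is in capitals, from RefSeq on GRCm38.p6 (chr7:113207529-113207558, plus strand).
Arntl ROR element: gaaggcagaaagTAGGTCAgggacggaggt

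The Period genes encode the PER proteins that, with the cryptochromes, repress BMAL1 and CLOCK. Per1 (ENSMUSG00000020893.17, chromosome 11, 69095217 to 69109960) had 3874 control reads, 4169 in the oxidase library and 5263 in the Et2HOBA library. The level was 1.15-fold that of control after glucose oxidase (1.10 to 1.20) and 1.35-fold with Et2HOBA (1.29 to 1.41). Per2 (ENSMUSG00000055866.9, chromosome 1, 91415982 to 91459324) went the other way with Et2HOBA. Its reads numbered 1298 in control, 1321 in the oxidase library and 905 in the Et2HOBA library. That made 1.09-fold of control after glucose oxidase (1.01 to 1.18), but 0.693 of control (0.636 to 0.755) and 0.637 of the oxidase library (0.584 to 0.694) with Et2HOBA. In the comparison of the treated libraries, 7.34% of listed genes lay below Per2. Per3 (ENSMUSG00000028957.12, chromosome 4, 151003652 to 151044665), the least abundant member, had 330, 557 and 444 reads in the 3 libraries in that order. Its 1.80-fold level after glucose oxidase (1.57 to 2.07) was the largest of the 10 in that comparison, and with Et2HOBA it was 0.741 of the oxidase library (0.653 to 0.841) while still 1.34-fold that of control (1.16 to 1.55). In the Et2HOBA library Per1 and Per3 were thus above control by nearly the same fold, with overlapping intervals, and Per2 was below control.

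The promoter letters of Per1 and Per3 differ in the elements they hold, and both are shown for that reason. They are the 250 bases before the transcript start from RefSeq on GRCm38.p6, written 5′ to 3′ on the gene's own strand with matches in capitals. Windows of 300 bases, reaching 50 bases past the start, were searched on both strands for the E-box CACGTG, the D-box as TTATGTAA or TTACGTAA, the ROR element as TAGGTCA or TGGGTCA, and the cAMP response element TGACGTCA. Of 32851 such windows, 7.15% held the E-box, 1.06% the D-box, 6.45% the ROR element and 1.79% the cAMP response element. Windows were found for 9 of the 10 members, 12 in all; Per2 had none. Per1 has 2 annotated starts with a window. The one shown is chr11:69098699-69098948 on the plus strand, with an E-box beginning 166 bases before the start, and the other held none of the letters searched. The Per3 window is chr4:151044666-151044915 on the minus strand, with D-boxes beginning 205 and 158 bases before the start and no E-box of these letters.
Per1: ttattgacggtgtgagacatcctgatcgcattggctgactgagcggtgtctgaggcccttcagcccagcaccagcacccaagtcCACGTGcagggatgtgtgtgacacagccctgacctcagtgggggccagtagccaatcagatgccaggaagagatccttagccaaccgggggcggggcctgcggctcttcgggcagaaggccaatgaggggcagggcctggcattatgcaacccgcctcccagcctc
Per3: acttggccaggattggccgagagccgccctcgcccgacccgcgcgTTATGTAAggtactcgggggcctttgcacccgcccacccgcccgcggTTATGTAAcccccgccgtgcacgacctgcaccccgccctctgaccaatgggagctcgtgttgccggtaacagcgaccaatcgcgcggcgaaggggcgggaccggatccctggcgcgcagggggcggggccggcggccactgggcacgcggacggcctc

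The cryptochromes CRY1 and CRY2 are the main repressors of the loop. Cry1 (ENSMUSG00000020038.10, chromosome 10, 85131700 to 85185064) had 957 control reads, 1185 in the oxidase library and 1606 in the Et2HOBA library, a level of 1.32-fold (1.21 to 1.44) and then 1.67-fold (1.54 to 1.81) that of control. Cry2 (ENSMUSG00000068742.11, chromosome 2, 92403646 to 92434043) had 560, 676 and 588 reads. Its level was 1.29-fold that of control after glucose oxidase (1.15 to 1.45) and 1.04-fold with Et2HOBA (0.928 to 1.17), within counting error, and the sign of the latter turned with total-count scaling, to a log2 ratio of -0.09. The pair therefore parted in the Et2HOBA library alone: Cry1 had 1.71 reads per read of Cry2 in control (1.54 to 1.90), 1.75 in the oxidase library (1.59 to 1.93) and 2.73 in the Et2HOBA library (2.48 to 3.01). The Cry1 window (chr10:85185055-85185304, minus strand) holds an E-box beginning 60 bases before the start, and the Cry2 window holds none of the letters searched.
Cry1: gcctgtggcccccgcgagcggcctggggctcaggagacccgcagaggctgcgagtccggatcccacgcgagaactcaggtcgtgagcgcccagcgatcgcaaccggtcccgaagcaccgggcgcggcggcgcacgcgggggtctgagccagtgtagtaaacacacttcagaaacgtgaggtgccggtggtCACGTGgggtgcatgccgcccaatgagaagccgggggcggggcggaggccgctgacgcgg

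**Figure D2:**
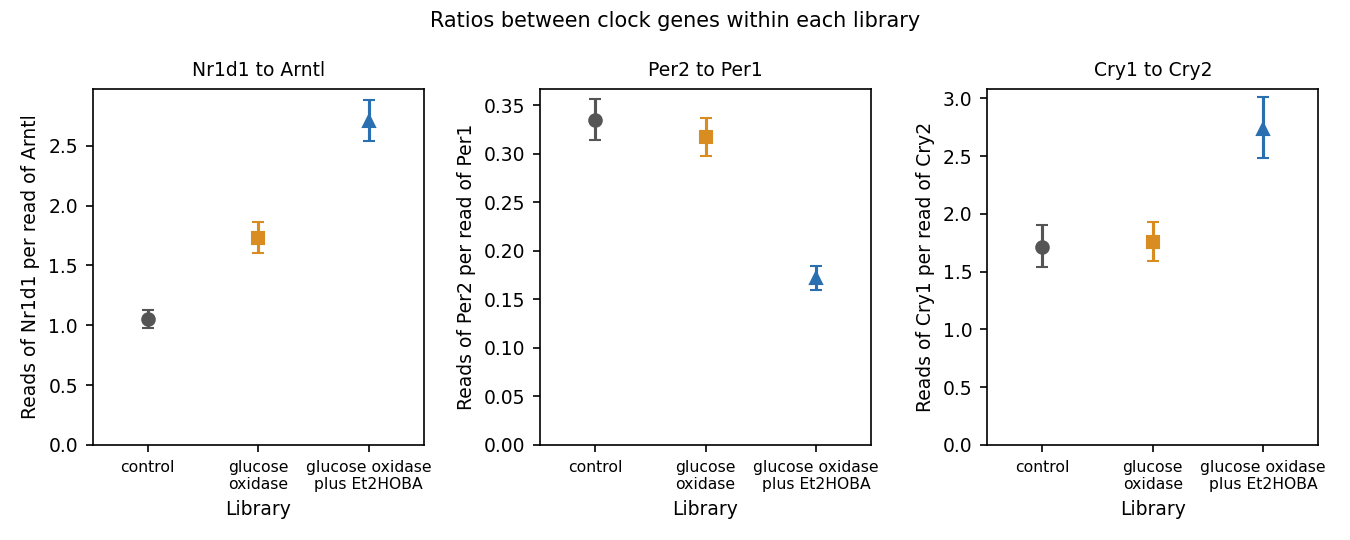
Reads of Nr1d1 per read of Arntl, of Per2 per read of Per1 and of Cry1 per read of Cry2 within each library, with exact 95% Clopper-Pearson intervals that cover counting error only. Nr1d1 to Arntl goes from 1.05 in control to 1.73 and 2.70, and for the other pairs only the Et2HOBA library lies apart from the others.

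Nr1d1 and Nr1d2 encode the REV-ERB receptors, haem-binding repressors that close the second loop. Nr1d1 (ENSMUSG00000020889.11, chromosome 11, 98767932 to 98775333) had 1429 control reads, 2011 in the oxidase library and 3652 in the Et2HOBA library. The counting interval of each step lay above 1: 1.50-fold from control to the oxidase library (1.41 to 1.61), 1.69-fold from there to the Et2HOBA library (1.60 to 1.78) and 2.54-fold in all (2.39 to 2.70). Of all listed genes, 96.1% lay below it with Et2HOBA against control. Nr1d1 stayed past the limit under each scaling, each pseudocount and in the authors' deposited table, where it had a log2 difference of 1.30. Nr1d2 (ENSMUSG00000021775.11, chromosome 14, 18204054 to 18239127) followed with 1114, 1531 and 2117 reads. It was 1.47-fold of control after glucose oxidase (1.36 to 1.59) and 1.89-fold with Et2HOBA (1.76 to 2.03), a log2 ratio of 0.91, just inside the limit. Of the 50-base stretches in its longest transcript, 6% occur in another gene.

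Within a library, ratios between genes do not depend on how libraries are scaled. The reads of Nr1d1 per read of Arntl were 1.05 in control (0.974 to 1.13), 1.73 in the oxidase library (1.61 to 1.86) and 2.70 in the Et2HOBA library (2.54 to 2.88). The reads of Per2 per read of Per1 were 0.335 (0.314 to 0.357), 0.317 (0.298 to 0.337) and 0.172 (0.160 to 0.185). The first ratio separated all 3 libraries, whereas the other set only the Et2HOBA library apart. These pairs, like that of the cryptochromes, were chosen after their values were seen.

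Nr1d1 shares 263 exon bases, 8.55% of its merged exons, with Thra on the opposite strand, the gene of a thyroid hormone receptor. Thra had 1574, 1396 and 1677 reads, log2 ratios of -0.08 and 0.08 against control, where Nr1d1 had 0.59 and 1.34. The part of Thra reads in the Nr1d1 values was not tested, and the strand setting of the counting is not known here. The Nr1d1 window (chr11:98775378-98775627, minus strand) held none of the letters searched, which says nothing of elements outside it, and is shown because this gene had the largest ratio of the 10.
Nr1d1: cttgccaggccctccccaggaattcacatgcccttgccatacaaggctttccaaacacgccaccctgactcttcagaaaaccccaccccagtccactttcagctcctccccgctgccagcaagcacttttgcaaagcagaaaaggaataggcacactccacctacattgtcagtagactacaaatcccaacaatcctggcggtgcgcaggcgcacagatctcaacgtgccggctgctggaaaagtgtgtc

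**Figure D3:**
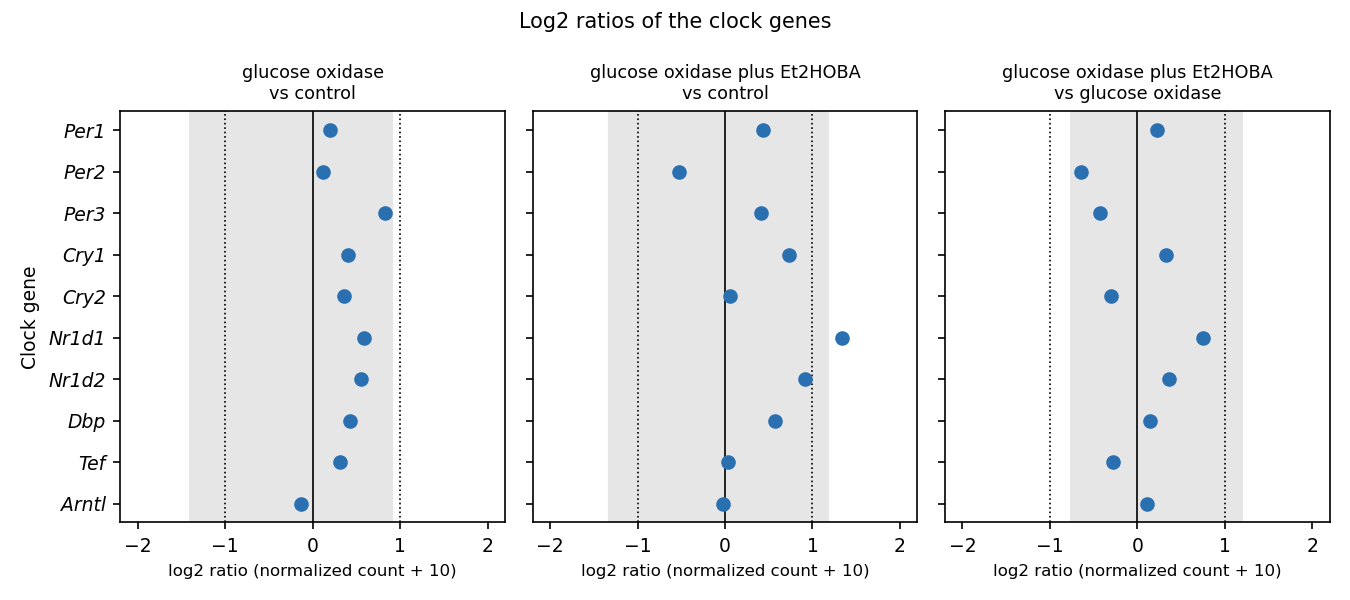
Log2 ratios (normalized count plus 10) of the 10 clock genes in the 3 comparisons, 1 library per condition; grey marks the 5th to 95th percentile of all listed genes, dotted lines the limit of 1 in each direction. Nr1d1 with Et2HOBA against control, at 1.34, is the only point outside the grey, whose upper edge there is at 1.17.

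Dbp and Tef encode PAR bZIP factors, which activate genes through D-boxes. Dbp (ENSMUSG00000059824.12, chromosome 7, 45705088 to 45710203) had 2414 control reads, 3028 in the oxidase library and 3608 in the Et2HOBA library. The level was 1.34-fold (1.27 to 1.42) and then 1.49-fold (1.41 to 1.56) that of control. Its exons overlap those of Sphk2, a sphingosine kinase gene on the opposite strand, over 539 bases or 18.0% of the merged exons of Dbp. Sphk2 itself had 1712, 2847 and 4014 reads, log2 ratios of 0.83 and 1.22 against control. The strand setting of the counting is not given in the sources used here, and the part of Sphk2 reads in the Dbp values was not tested. Tef (ENSMUSG00000022389.15, chromosome 15, 81802421 to 81826863) had 3421, 3982 and 3531 reads. It was 1.24-fold of control after glucose oxidase (1.19 to 1.30) and 1.03-fold with Et2HOBA (0.978 to 1.08), within counting error, where total-count scaling turned the log2 ratio to -0.11. Both annotated starts of Tef have an E-box, and the Dbp window has none. The Tef window shown (chr15:81802423-81802672, plus strand) has its E-box beginning 127 bases before the start. The members with an E-box in at least 1 window were Per1 (in 1 of 2), Cry1 and Tef, where 7.15% of all windows held one. These had log2 ratios of 0.43, 0.73 and 0.04 with Et2HOBA against control. Members with windows but no E-box in them were Nr1d1, Nr1d2, Dbp, Per3, Cry2 and Arntl, at 1.34, 0.91, 0.57, 0.41, 0.06 and -0.02. The windows say nothing of elements outside them, and a link between E-boxes and ratios was not tested.
Tef: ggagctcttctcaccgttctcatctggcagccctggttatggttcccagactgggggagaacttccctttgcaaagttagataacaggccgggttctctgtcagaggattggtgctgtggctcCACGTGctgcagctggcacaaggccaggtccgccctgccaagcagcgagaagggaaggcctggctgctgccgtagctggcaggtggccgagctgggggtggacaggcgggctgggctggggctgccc

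Levels of different genes were compared per kilobase of merged exon. In control the order was Dbp (782 normalized counts per kilobase), Per1 (667), Nr1d1 (450.02), Tef (421), Cry1 (278), Per2 (215), Nr1d2 (199.6), Arntl (175), Cry2 (85.9) and Per3 (33.3). Counting intervals overlapped only between Nr1d1 and Tef and between Per2 and Nr1d2. Dbp and Per1 lay above 81.3% and 78.1% of protein-coding genes per kilobase, and Per3 above 21.8%. With Et2HOBA, Nr1d1 stood at 1143 normalized counts per kilobase, next to Dbp at 1161 with overlapping intervals and above Per1 at 899.9, while Per2, at 149, had moved below Arntl at 173. The order depends on the length used. Per kilobase of the longest transcript, Tef lay above Nr1d1 in control, Arntl above Cry1, Nr1d2 and Per2, and Nr1d2 above Per2. On that length Dbp (1891) and Nr1d1 (1292) also lay well apart with Et2HOBA.

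Of 20 other clock genes, a list of partners, competitors, kinases and ubiquitin ligases of the loop, 17 were listed; those without an entry included Npas2 and Hlf. After glucose oxidase 1 of the 17 rose past the limit, where 4.07% of all listed genes did, and with Et2HOBA 4 rose, where 6.66% did. None fell in either comparison, where 8.60% and 8.04% of all listed genes did. The background shares in either direction were 12.7% and 14.7%. The median log2 ratios of the list were 0.12 and 0.33, against -0.01 and -0.0002 over all listed genes. Ciart encodes a repressor of BMAL1 and CLOCK and had the highest ratio of the list. Its reads numbered 252 in control, 521 in the oxidase library and 709 in the Et2HOBA library, a 2.21-fold rise (1.90 to 2.58) and then a 2.80-fold rise over control (2.42 to 3.24). In its longest transcript 15.1% of 50-base stretches occur in another gene. Its window (chr3:95882229-95882478, minus strand) is shown for its E-boxes, which begin 116, 58 and 44 bases before the start.
Ciart: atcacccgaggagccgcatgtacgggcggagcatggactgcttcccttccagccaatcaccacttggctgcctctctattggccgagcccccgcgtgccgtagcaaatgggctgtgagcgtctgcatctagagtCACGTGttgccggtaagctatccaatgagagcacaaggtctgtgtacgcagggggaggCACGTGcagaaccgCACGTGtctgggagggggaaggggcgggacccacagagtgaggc

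Bhlhe40 encodes DEC1, a repressor that competes for E-boxes. It had 2839, 3689 and 6827 reads and rose 2.39-fold over control with Et2HOBA (2.29 to 2.50). Its paralog Bhlhe41 had 646, 911 and 1301 reads and a log2 ratio of 0.99, just under the limit. Nfil3 encodes the repressor at D-boxes that opposes DBP and TEF; it had 643, 903 and 1318 reads and rose 2.04-fold (1.85 to 2.24). Csnk1e encodes a kinase that phosphorylates PER proteins; it had 1321, 1771 and 2692 reads and rose 2.02-fold (1.90 to 2.16). Nfil3 and Csnk1e both had a log2 ratio of 1.01, so near the limit that total-count scaling left only 2 of the 17 past it. Csnk1d, which encodes the related kinase, had 8257, 8176 and 8787 reads. The lowest ratio of the list with Et2HOBA was that of Timeless, at -0.63. Arntl2, the paralog of Arntl, had 401, 563 and 350 reads, and with Et2HOBA it was 0.578 of the oxidase library (0.504 to 0.661).

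Of 11 clock-controlled output genes, all listed, none rose past the limit in either comparison with control. Of all listed genes, 4.07% rose after glucose oxidase and 6.66% with Et2HOBA. None of the 11 fell after glucose oxidase, where 8.60% of all listed genes did. With Et2HOBA 1 of the 11 fell, where 8.04% of all listed genes did, so the count is near the share over all genes. That gene was Usp2, which encodes a deubiquitinase. Control held 401 of its reads, the oxidase library 202 and the Et2HOBA library 145, the last being 0.359 of control (0.295 to 0.436). The other 10 had log2 ratios between -0.51 for Wee1, the gene of a mitotic checkpoint kinase, and 0.78 for Klf9 with Et2HOBA. Over the list the median was 0.15 for the oxidase library and 0.41 for the Et2HOBA library relative to control, and 0.26 for the latter relative to the former. Tsc22d3, which is also induced by glucocorticoids, had 5205, 6070 and 7872 reads, with log2 ratios of 0.32 and 0.59 against control.

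**Figure D4:**
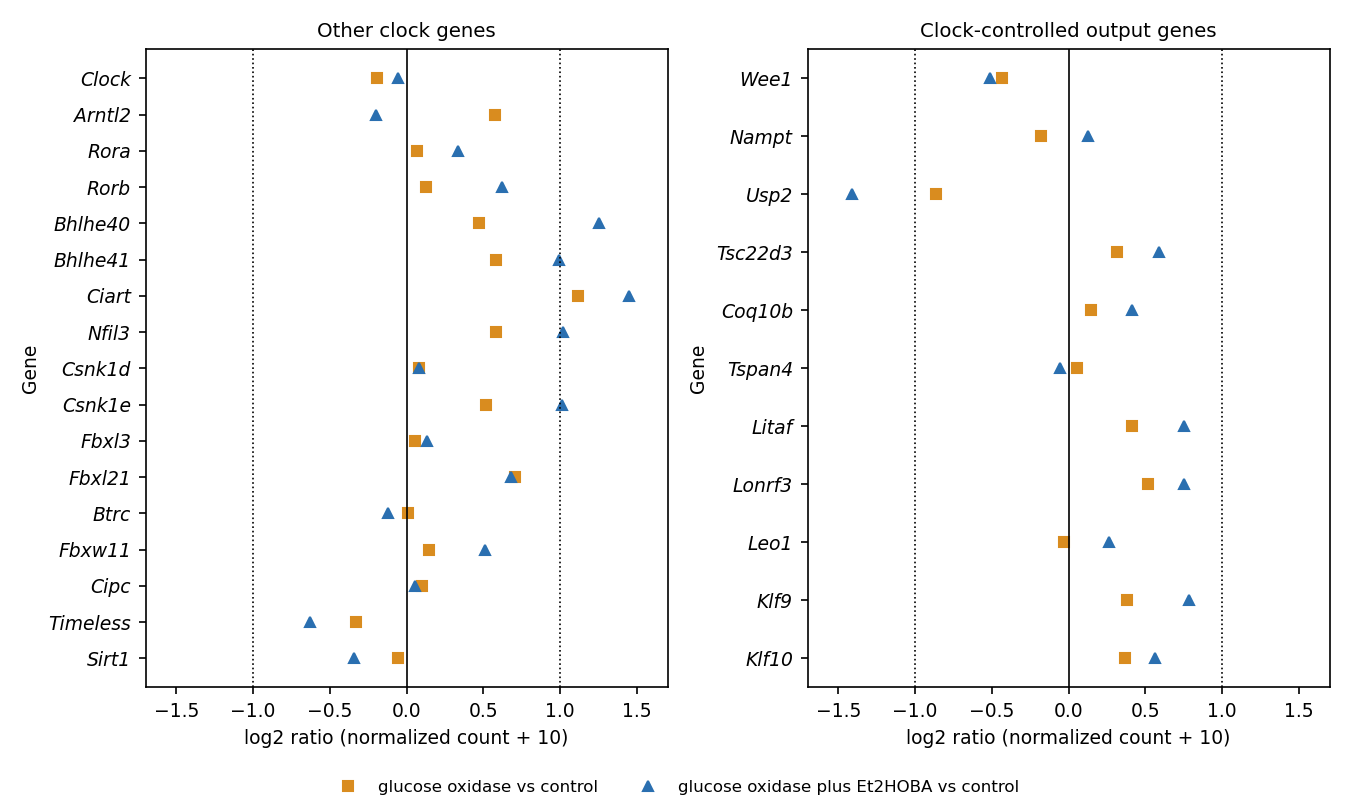
Log2 ratios (normalized count plus 10) against control of the listed other clock genes (left) and clock-controlled output genes (right) after glucose oxidase (squares) and after glucose oxidase plus Et2HOBA (triangles), 1 library each; dotted lines mark the limit of 1. Ciart, Bhlhe40, Nfil3 and Csnk1e reach the upper limit with Et2HOBA, and Usp2, at -1.41, is the only gene past the lower one.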

How the data were processed

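Reads were aligned to mm10 with STAR and counted with featureCounts, per the submitters' processing notes; versions, annotation and strand setting are not given in the sources used here. The authors deposited raw read counts for control and for glucose oxidase plus Et2HOBA, with log2 differences, per the file headers. For glucose oxidase against control they deposited only a symbol and a log2 difference. The counts of that library were recovered here. Its log scale could be written as asinh of the root of a scaled count, the scale being fixed for a library. Solving it with the control counts returned whole reads (tolerance 0.01) in 100% of 18275 genes joined on symbol, against 3.31% with 1 read added to each control count. Symbols used more than once left 12 genes, which were assigned where whole reads resulted, and 19 symbols had been turned into dates. These deposited log2 differences act like a pseudocount of 203 normalized counts in that table and 68.6 in the one with Et2HOBA, so they are not comparable between tables.

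Size factors by the median of ratios over the 3 libraries normalized the counts (1.03, 0.965 and 1.04), with a pseudocount of 10. No count model was fitted, since 1 library per group gives no spread. Intervals are exact at 95%, and counts at or under 3 reads were the floor. Recovery and ratios were tested on simulated data made with the same asinh form and counting noise only. That checks the computation, not the form itself or differences between cultures. Lengths, overlaps and shared 50-base stretches are from GENCODE release M21, where 17878 gene IDs had the same version and all 17878 the same position, which puts the files on GRCm38. The annotated version of Csnk1e differs there.

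The members and lists were chosen with earlier results of these data known. Named were all 10 members and the genes of the other lists past the limit against control; other named genes were chosen after their values were seen. No genes were named for a like pattern, since 3 libraries give no usable measure. Alternatives were the pseudocount, total-count and edgeR 4.0.16 TMM scaling, size factors from protein-coding genes, the deposited scale, the limit and an expression filter. Python 3.11.15, scipy 1.17.1 and R 4.3.3 were used.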

Additional observations from a re-analysis of the deposited data

How the results depend on the processing

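No paired analysis was possible because each group has 1 library, and for the same reason no library could be left out. Of the 30 log2 ratios of single clock genes (10 genes in 3 comparisons), 28 kept their sign under each pseudocount, scaling and, for the comparisons with control, the deposited scale; the exceptions were Cry2 and Tef with Et2HOBA against control under total-count scaling, both near 0 as reported. Total-count scaling moved the median of all listed genes with Et2HOBA against control from -0.0002 to -0.13 and that of the clock genes from 0.42 to 0.27, so relative to all genes the clock genes moved little. Under the other settings that median was 0.39 to 0.43. After glucose oxidase it was 0.32 to 0.39 under all settings. Between the treated libraries it was 0.12 to 0.16, except with total-count scaling, which took it from 0.13 to 0.03 and the median of all listed genes there to -0.08. The number of clock genes past the limit was 0, 1 and 0 in the 3 comparisons (glucose oxidase against control, Et2HOBA against control, Et2HOBA against glucose oxidase). It changed only with the limit: at 0.5 it was 3, 5 and 2 (backgrounds 33.8%, 40.1% and 25.5%), and at 2 it was 0 throughout. For the other clock genes the counts of 1, 4 and 0 became 6, 9 and 2 when it was 0.5, and 0 when it was 2. After glucose oxidase the count was 0 on the deposited scale. With Et2HOBA against control it was 2 with a pseudocount of 50, 2 with total-count scaling and 2 on the deposited scale. For the output genes the counts of 0, 1 and 0 became 2, 7 and 1 when it was 0.5, and 0 when it was 2. The expression filter, a pseudocount of 1, TMM scaling and size factors from protein-coding genes (added after seeing the data) changed none of these counts. The deposited table for the treated libraries lists 7 genes, none of them clock genes, so that scale gave no value there. Depth did not limit the larger differences, but Per3 and Cry2, with under 700 reads, had the widest intervals.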
